A study of Mus musculus with 20 samples.

Results

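The keratin gene family was taken as every gene row whose mouse symbol is Krt followed by a number, leaving out the keratin-associated proteins and 1 row annotated as a pseudogene. It held 54 of the 54309 gene rows, 26 type II and 28 type I genes. Keratins are the intermediate filament proteins of epithelial cells. Each filament is built from a type II and a type I keratin in equal parts, and the pair in use marks the kind of epithelium. Krt8 with Krt18 is the pair of simple epithelia, Krt5 with Krt14 that of the basal layer of stratified squamous epithelium, Krt1 with Krt10 that of the differentiating layers above it, and Krt6a with Krt16 and Krt17 appears in wounded, stressed or hyperproliferative epithelium. Squamous carcinomas are commonly recognised by Krt5 and Krt14.

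RNA was sequenced from subcutaneous tumors of SCCVII, a murine squamous carcinoma line used as a head and neck cancer model, in immunocompetent C3H/HeOuJ mice. The 20 libraries made up 10 groups of 2, replicates A and B. Of the treated groups, 4 received a lone agent: APG-157 (a botanical drug containing curcumin, given in chow), anti-PD-1 or anti-CTLA-4 (checkpoint antibodies), or anti-CD8 (an antibody that depletes CD8+ T cells). The 5 combined groups are called here the PD-1 combination (APG-157 with anti-PD-1), the CTLA-4 combination (APG-157 with anti-CTLA-4), the antibody pair (both checkpoint antibodies without APG-157), the triple combination (all of APG-157 and both checkpoint antibodies) and the CD8-depleted combination (anti-CD8 given along with the CTLA-4 combination). The last group is the control. Every group carries the same injected line, and the labels do not say whether A and B came from separate mice, so that the spread between them, and p-values with it, may be partly technical.

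Library totals lay between 43.9 and 72.1 in units of 1e6 expected counts, with a median of 54.9. Levels are given as CPM, counts per 1e6 counts of a library after TMM scaling. The replicates of the CTLA-4 combination differed by a biological coefficient of variation of 4.25%, against 20.8% to 68.2% in the other pairs. For some assays of this group the paper reports a single small resected tumor. The labels do not say whether both libraries came from the same tumor. Replicate B of the CD8-depleted combination stood apart. There 11.5% of all counts fell on 1 gene without a symbol, against at most 2.58% on the most abundant gene of any other library, the 10 adipocyte markers summed to 6703 CPM against 45.5 to 270.0 CPM in the other 19, and the 10 epithelial surface and junction genes summed to 666 CPM against 3.97 to 10.4 CPM. Keratin calls that rest on this library are given with and without it.

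The promoters of the pairs Krt8 with Krt18 and Krt5 with Krt14 are shown because Krt8 with Krt18 made up nearly all keratin RNA in these tumors and Krt5 with Krt14 was close to 0. Each covers 250 bases before to 50 bases after the RefSeq gene start on GRCm38.p6, an earlier build than that of the count table. Capitals mark matches on either strand to any of 4 motifs: the TATA box, the GC box, the CCAAT box and the AP-1 motif.
Krt8 promoter, chr15:102004293-102004592, minus strand: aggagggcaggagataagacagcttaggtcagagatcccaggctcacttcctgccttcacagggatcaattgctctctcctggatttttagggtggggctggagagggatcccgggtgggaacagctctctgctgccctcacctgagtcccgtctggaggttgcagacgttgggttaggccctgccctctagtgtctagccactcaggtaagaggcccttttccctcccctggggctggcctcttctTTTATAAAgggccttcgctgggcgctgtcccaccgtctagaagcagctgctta
Krt18 promoter, chr15:102027966-102028265, plus strand: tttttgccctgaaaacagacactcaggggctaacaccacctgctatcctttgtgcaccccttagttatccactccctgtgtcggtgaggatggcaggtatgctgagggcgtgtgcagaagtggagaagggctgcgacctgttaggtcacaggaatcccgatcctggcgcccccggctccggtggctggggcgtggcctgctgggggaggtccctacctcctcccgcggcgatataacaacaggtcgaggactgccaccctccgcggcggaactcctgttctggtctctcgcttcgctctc
Krt5 promoter, chr15:101712856-101713155, minus strand: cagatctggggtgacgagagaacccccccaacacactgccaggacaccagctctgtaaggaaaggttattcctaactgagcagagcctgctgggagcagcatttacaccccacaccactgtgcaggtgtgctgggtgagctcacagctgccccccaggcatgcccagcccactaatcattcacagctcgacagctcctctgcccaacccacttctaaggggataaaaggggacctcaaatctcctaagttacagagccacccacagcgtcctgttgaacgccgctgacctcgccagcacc
Krt14 promoter, chr11:100205981-100206280, minus strand: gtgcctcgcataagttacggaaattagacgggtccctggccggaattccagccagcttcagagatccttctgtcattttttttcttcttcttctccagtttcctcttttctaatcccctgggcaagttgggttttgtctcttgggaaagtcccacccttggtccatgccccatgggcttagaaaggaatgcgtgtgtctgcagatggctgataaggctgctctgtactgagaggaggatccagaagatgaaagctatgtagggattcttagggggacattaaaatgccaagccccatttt
Among these 4 windows the capitals fall in that of Krt8 alone, on the TATA box read on both strands with overlap. The TATA box, searched as TATAAA, was present in 13.6% of 32851 promoters of this length and in 52.8% of the 36 keratin promoters that could be matched. The GC box, searched as GGGCGG, was in 35.7% of all promoters and 5.56% of the keratin promoters. The CCAAT box, searched by these letters, was in 37.4% of all promoters and 41.7% of the keratin promoters. The AP-1 motif, searched as TGANTCA, was in 7.81% of all promoters and 2.78% of the keratin promoters. A match describes the letters only.

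The simple epithelial pair dominated. Krt8 and Krt18 together took 98.6% to 99.8% of all keratin counts in 19 libraries (median 99.5%), and 70.0% in replicate B of the CD8-depleted combination (Wilson 95% interval 69.6% to 70.3%, counting error only). Per kilobase of transcript, the level of Krt18 averaged 655 CPM and that of Krt8 401 CPM, ahead of Krt19 at 7.04, Krt7 at 1.92, Krt80 at 1.87 and Krt10 at 0.761 CPM per kilobase. The averages of Krt19 and Krt7 rest on 1 library, since in the other 19 no library exceeded 0.116 CPM for Krt19 or 1.85 CPM for Krt7. The remaining members stayed under a mean of 1 CPM, 15 of the 54 had 0 counts in every library, and 9 of those 15 were among the 15 hair shaft and nail keratins. All keratins summed to 0.109% to 0.218% of each library. The 15 hair shaft and nail keratins together stayed at or under 0.139 CPM in 19 libraries, the 9 inner root sheath and companion layer keratins at or under 0.0806 CPM, and the 4 mucosal and corneal keratins at or under 0.713 CPM. In replicate B of the CD8-depleted combination these sums were 6.17, 0.55 and 8.48 CPM.

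The basal keratins by which squamous carcinomas are commonly recognised were at or near 0 in most libraries of this squamous line. The identity of the line was not tested. Krt5, the type II keratin of basal keratinocytes, had 0 counts in 16 of 20 libraries, and a count of 0 allows up to 3 counts, or 0.0403 to 0.0708 CPM by library. Krt14, its type I partner, had a median of 0.036 CPM. Trp63, the transcription factor of basal squamous cells, reached 1.27 CPM at most in the 19 libraries other than replicate B of the CD8-depleted combination, and the desmosomal plakin Dsp, which ties keratin filaments to cell junctions, 0.88 CPM. Other desmosomal genes were higher, with Jup between 8.70 and 31.2 CPM, Pkp2 between 12.7 and 23.9 CPM and Pkp3 between 8.12 and 16.1 CPM in these 19 libraries. The plakin Plec, which links keratins to hemidesmosomes, lay between 375 and 805 CPM, its relative Dst between 158 and 345 CPM and the hemidesmosomal integrin chain Itgb4 between 87.0 and 158.5 CPM, whereas the hemidesmosomal collagen Col17a1 stayed between 0.05 and 0.97 CPM. Vim, the filament protein of mesenchymal cells, lay between 3942 and 5974 CPM. Bulk RNA cannot tell fewer cells of a type apart from less RNA per cell.

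**Figure D1:**
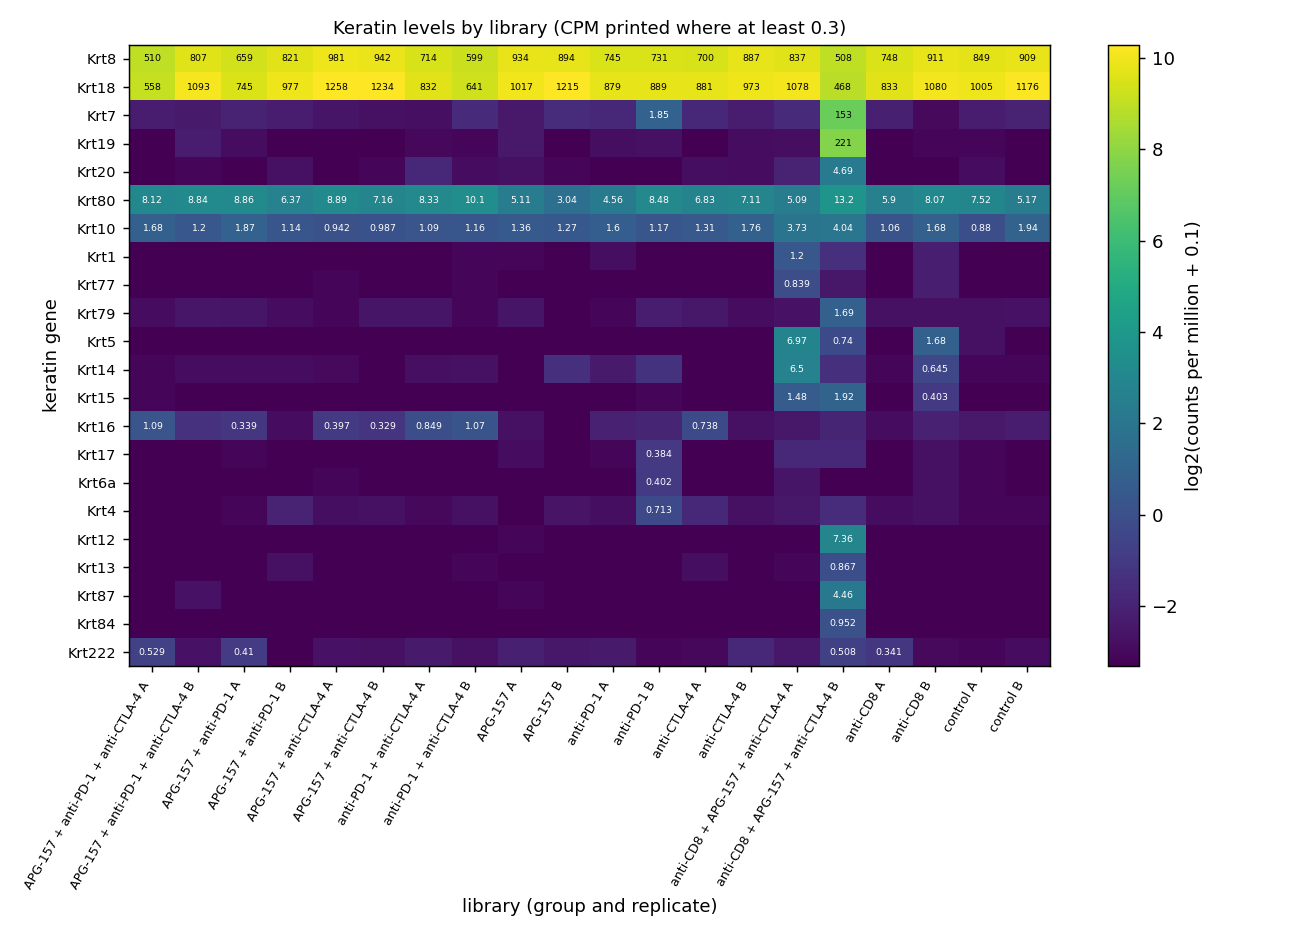
Levels of 22 keratins (rows) in the 20 libraries (columns), coloured by log2 of CPM plus 0.1, with the CPM printed where it is at least 0.3. Krt8 and Krt18 are high throughout, Krt80 and Krt10 are present in every library, and most other cells are near 0 outside the anti-CD8 libraries and replicate B of anti-PD-1.

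Krt8, the type II keratin of simple epithelium, had 934 and 894 CPM in replicates A and B of APG-157, 745 and 731 CPM in anti-PD-1, 700 and 887 CPM in anti-CTLA-4, and 659 and 821 CPM in the PD-1 combination. It had 981 and 942 CPM in the CTLA-4 combination, 714 and 599 CPM in the antibody pair, and 510 and 807 CPM in the triple combination. The anti-CD8 libraries had 748 and 911 CPM, those of the CD8-depleted combination 837 and 508 CPM, and the control libraries 849 and 909 CPM. Both libraries of the CTLA-4 combination were above both control libraries, and both libraries of anti-PD-1, of the PD-1 combination, of the antibody pair, of the triple combination and of the CD8-depleted combination were below them.

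Krt18, its type I partner, had 1017 and 1215 CPM in APG-157, 879 and 889 CPM in anti-PD-1, 881 and 973 CPM in anti-CTLA-4, and 745 and 977 CPM in the PD-1 combination. It had 1258 and 1234 CPM in the CTLA-4 combination, 832 and 641 CPM in the antibody pair, and 558 and 1093 CPM in the triple combination. The anti-CD8 libraries had 833 and 1080 CPM, those of the CD8-depleted combination 1078 and 468 CPM, and the control libraries 1005 and 1176 CPM. As for Krt8, the highest values were those of the CTLA-4 combination, and the lowest was that of replicate B of the CD8-depleted combination.

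**Figure D2:**
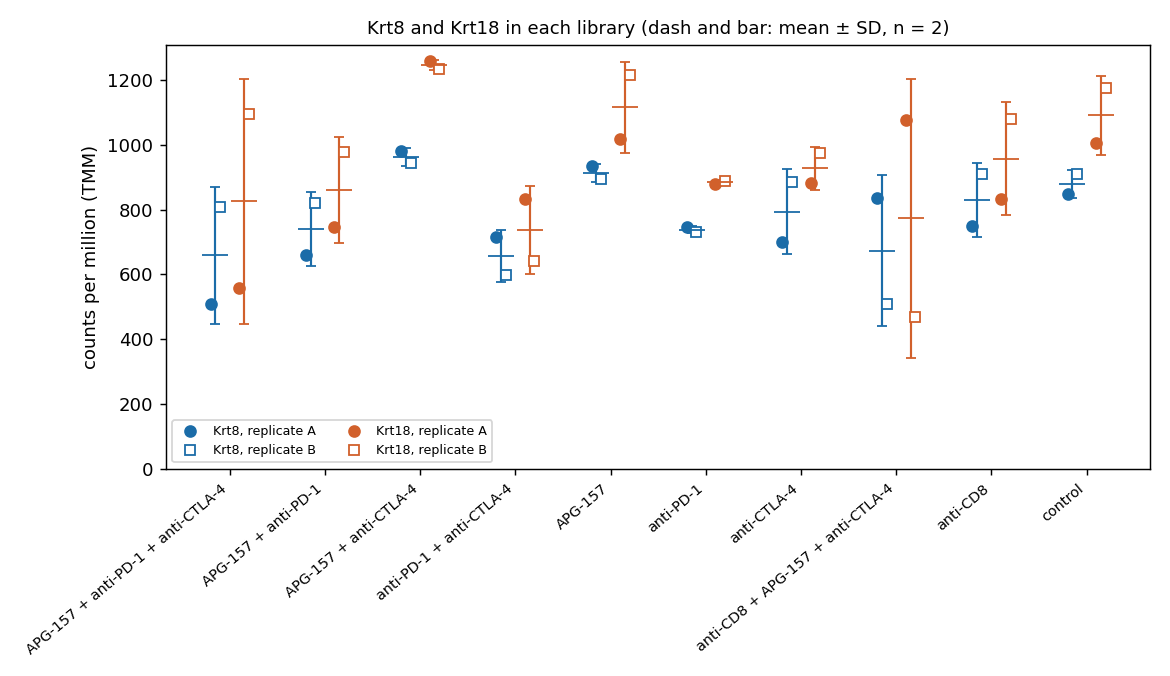
CPM of Krt8 (blue) and Krt18 (orange) in each library, with circles for replicate A, squares for replicate B, and dashes with bars for the mean ± SD (n = 2). The libraries of the CTLA-4 combination are the highest for both genes, and the wide bars of the triple combination and the CD8-depleted combination show how far their replicates differ.

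None of these differences from control passed the test. In edgeR's quasi-likelihood fit over all 20 libraries, where a call needs a log2 fold change above 2 or below -2 and a Benjamini-Hochberg adjusted p under 0.05, the log2 fold change of Krt8 against control lay between -0.42 (the antibody pair, SE 0.24) and 0.13 (the CTLA-4 combination, SE 0.24), and that of Krt18 between -0.57 (SE 0.35) and 0.19 (SE 0.35) in the same comparisons. For the CTLA-4 combination against anti-CTLA-4 alone the log2 fold changes were 0.28 for Krt8 (SE 0.24) and 0.43 for Krt18 (SE 0.35). With 2 libraries a group, differences of this size could not be resolved from the spread between libraries. Krt8 shares 32.2% of its 31-base stretches with its pseudogene Krt8-ps, which had 3140 counts beside the 886438 of Krt8 over all libraries.

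Krt8 and Krt18 moved together from library to library. Over the 20 libraries Pearson's r of log2 of CPM plus 0.1 was 0.96 and Spearman's rho 0.91 (permutation p = 1e-05 for each, the smallest that 100000 resamples can give), and r was 0.93 without the 2 libraries farthest from the median of Krt8 and 0.95 for deviations from the group means. Both genes carry the same scaling factor in a library, and the replicates of a group may share a source. Of 5 partner pairs, this was the only one computed, because at least 1 member of each of Krt5 with Krt14, Krt6a with Krt16, Krt1 with Krt10 and Krt6b with Krt17 had 10 counts in fewer than 10 libraries, and those relations cannot be tested. Per kilobase, Krt18 stood at 1.26 to 1.85 times Krt8 (median 1.61), with the lowest ratio in replicate B of the CD8-depleted combination.

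**Figure D3:**
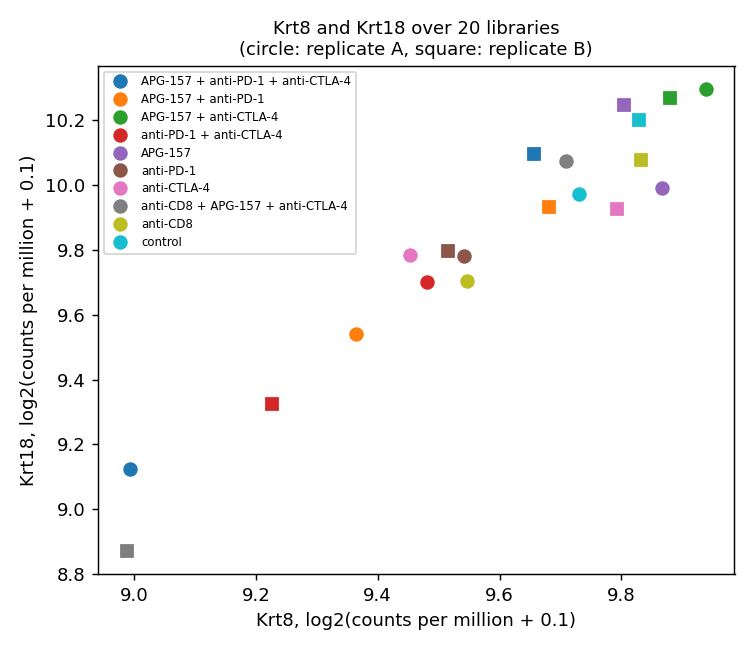
Krt18 against Krt8 in 20 libraries, both as log2 of CPM plus 0.1, coloured by group, with circles for replicate A and squares for replicate B. The points follow a line, with the CTLA-4 combination at the upper end and replicate B of the CD8-depleted combination at the lower end.

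The 8 groups without anti-CD8 form a complete layout of APG-157 and the checkpoint antibodies, in which each agent can be compared in 8 libraries with it and 8 without it. The low-count filter left 8 keratins here: Krt7, Krt8, Krt10, Krt14, Krt16, Krt18, Krt80 and Krt222. edgeR called 0 of them for anti-PD-1, where 0% of 19020 genes were called, and 3 had an unadjusted p under 0.05, as had 11.1% of all genes. Krt8 had a lowest, median and highest level of 510, 723 and 821 CPM with anti-PD-1, against 700, 902 and 981 CPM without it. All 8 libraries with anti-PD-1 lay below the median of the libraries without it. The log2 fold change was -0.34 (SE 0.09, unadjusted p = 0.0020, adjusted p = 0.385 in edgeR).

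Krt18 had 558, 855 and 1093 CPM with anti-PD-1, against 881, 1097 and 1258 CPM without it, and again all 8 libraries with the antibody were below the median of those without it. Its log2 fold change was -0.40 (SE 0.12, unadjusted p = 0.0049, adjusted p = 0.385 in edgeR), and DESeq2 also called 0 keratins. The third keratin with an unadjusted p under 0.05 was Krt16, at a log2 fold change of 1.25 (adjusted p = 0.439 in edgeR). The difference had the same direction on each background, with mean Krt8 levels of 738 CPM in anti-PD-1 and 879 CPM in control, 740 CPM in the PD-1 combination and 914 CPM in APG-157, 657 CPM in the antibody pair and 794 CPM in anti-CTLA-4, and 658 CPM in the triple combination and 962 CPM in the CTLA-4 combination. Markers of other cells varied beside it. The 15 skeletal muscle markers summed to 40.9 to 6117 CPM with anti-PD-1, against 23.9 to 2301 CPM without it, the 12 leukocyte markers to 1085 to 1758 CPM, against 855 to 1640 CPM, and the 10 fibroblast markers to 3980 to 8355 CPM, against 2897 to 6130 CPM. The 8 endothelial markers summed to 127 to 269 CPM with anti-PD-1, against 104 to 217 CPM without it, and 6 of them had an unadjusted p under 0.05 in edgeR (median log2 fold change 0.48). Their part in the result was not tested. The lowest Krt8 and Krt18 levels of the layout were those of replicate A of the triple combination, the library with the highest muscle markers, and without it the log2 fold changes were -0.27 for Krt8 and -0.31 for Krt18.

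For anti-CTLA-4 the keratin with the lowest p was Krt16, a type I keratin of wounded and hyperproliferative epithelium. It was a low-level gene in every library. With anti-CTLA-4 it had 0.738 and 0.053 CPM in the single-agent group, 0.397 and 0.329 CPM in the CTLA-4 combination, 0.849 and 1.07 CPM in the antibody pair, and 1.09 and 0.291 CPM in the triple combination. Without it, Krt16 had 0.054 and 0 CPM in APG-157, 0.138 and 0.164 CPM in anti-PD-1, 0.339 and 0.036 CPM in the PD-1 combination, and 0.090 and 0.117 CPM in control. These levels rest on 255 counts in 8 libraries with the antibody, against 51 counts in 8 without it. The skeletal muscle markers summed to 23.9 to 6117 CPM with anti-CTLA-4, against 43.2 to 4876 CPM without it, the leukocyte markers to 855 to 1758 CPM, against 1227 to 1591 CPM, and the fibroblast markers to 2897 to 5886 CPM, against 4821 to 8355 CPM. Of the 10 fibroblast markers, 6 had an unadjusted p under 0.05 for anti-CTLA-4 in edgeR, with a median log2 fold change of -0.46 over the list. The part of these cells in the result was not tested. Of the 8 libraries with anti-CTLA-4, 5 exceeded every library without it, and the groups overlapped.

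The log2 fold change of Krt16 was 2.39 (SE 0.56, unadjusted p = 6.9e-04), and it was not called by edgeR, at an adjusted p of 0.067. edgeR called 0 keratins for anti-CTLA-4 and 0.0368% of 19020 genes, with 4 of 8 keratins and 12.5% of all genes at an unadjusted p under 0.05. DESeq2 called Krt16 at an adjusted p of 0.00197. So did edgeR without replicate B of anti-CTLA-4 (adjusted p = 0.0226), without replicate A of the PD-1 combination (0.0435) and without replicate B of the triple combination (0.0356). Over 21 alternatives the adjusted p lay between 0.00197 and 0.155. In the 2 anti-CD8 groups, outside the layout, Krt16 had 0.087 and 0.169 CPM in the CD8-depleted combination, and 0.036 and 0.134 CPM in anti-CD8. Of its 31-base stretches, 51.9% also occur in other genes, so that some of its counts depend on how the estimate divided shared reads.

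Krt80, a type II keratin described in human tissue at desmosomes of differentiating epithelium, was present in every library. Its lowest, median and highest levels were 6.83, 8.22 and 10.1 CPM with anti-CTLA-4, against 3.04, 5.77 and 8.86 CPM without it. All 8 libraries with anti-CTLA-4 lay above the median of those without it. The log2 fold change was 0.43 (SE 0.17, unadjusted p = 0.0233), which edgeR did not call (adjusted p = 0.291). Krt7, a keratin of glandular and ductal epithelium, and Krt14 had log2 fold changes of -1.33 (SE 0.56) and -2.06 (SE 0.86) for anti-CTLA-4 at adjusted p of 0.331 and 0.324 in edgeR, on 48 and 10 counts in the 8 libraries with the antibody, against 158 and 43 counts in the 8 without it. In replicate B of anti-PD-1 alone Krt7 had 101 counts.

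**Figure D4:**
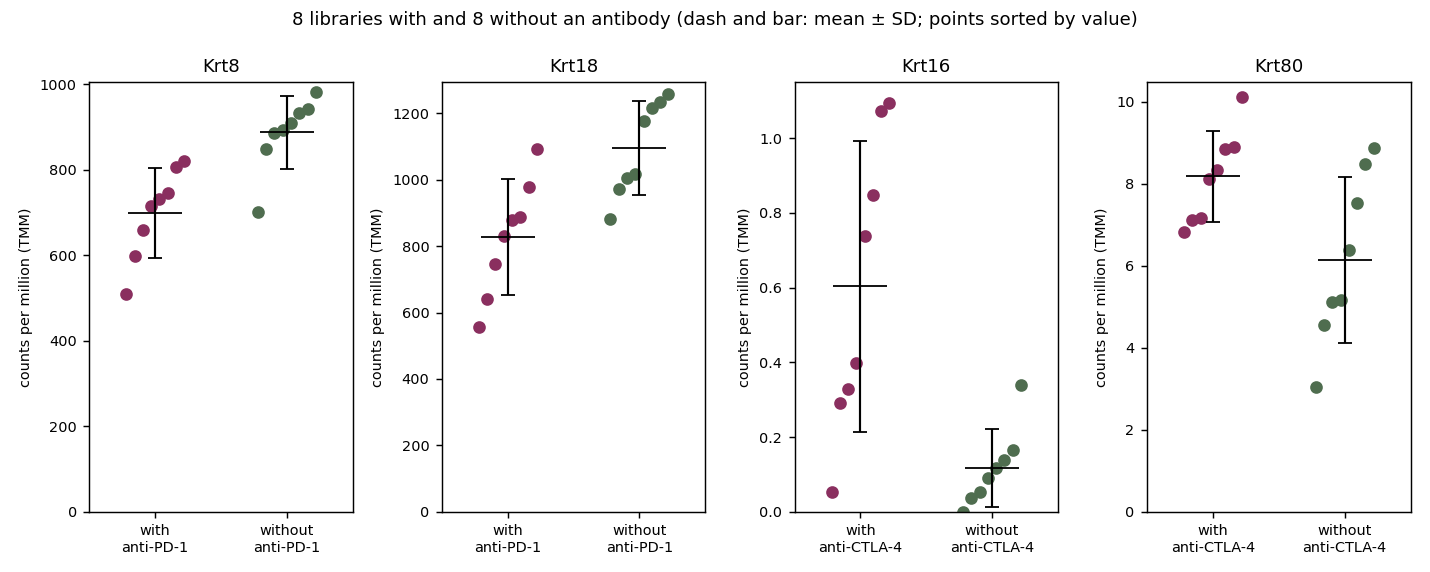
CPM of Krt8 and Krt18 in 8 libraries with and 8 without anti-PD-1, and of Krt16 and Krt80 in 8 libraries with and 8 without anti-CTLA-4, each point a library and each dash with a bar the mean ± SD. All libraries with the antibody lie below the median of the others for Krt8 and Krt18 and above it for Krt80, and the groups overlap in each panel.

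For APG-157 edgeR called 0 keratins in the layout and 0% of 19020 genes, with 1 keratin and 7.23% of all genes at an unadjusted p under 0.05 and 0 calls in DESeq2. Krt8 had a lowest, median and highest level of 510, 857 and 981 CPM with APG-157, against 599, 738 and 909 CPM without it. The log2 fold changes were 0.09 for Krt8 (SE 0.09) and 0.15 for Krt18 (SE 0.12). Krt10, the type I keratin of the differentiating epidermis, had 0.94, 1.23 and 1.87 CPM with APG-157, against 0.88, 1.24 and 1.94 CPM without it, so that the ranges nearly coincide.

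In the comparisons with control, 14 keratins passed the low-count filter: Krt1, Krt4, Krt5, Krt7, Krt8, Krt10, Krt14, Krt15, Krt16, Krt17, Krt18, Krt20, Krt80 and Krt222. edgeR called 0 of them in each of the 9 comparisons. The share of all 19567 genes called was 0.0153% for the CTLA-4 combination, 0.0102% for the CD8-depleted combination and 0% for the other 7. At an unadjusted p under 0.05 there were 7 keratins for the CD8-depleted combination, 1 each for anti-PD-1, the antibody pair, the triple combination and anti-CD8, and 0 for the other 4. The share of all genes at this threshold was 19.1% for the CD8-depleted combination, 0.618% for anti-PD-1 and 6.04% for the antibody pair. It was 4.48% for the triple combination and 1.19% for anti-CD8. For the other 4 it was 0.761% (APG-157), 6.45% (anti-CTLA-4), 2.43% (the PD-1 combination) and 11.1% (the CTLA-4 combination). DESeq2 called 3 keratins for the CD8-depleted combination (Krt7, Krt14 and Krt20) and 0 in the other 8. For the CTLA-4 combination against anti-CTLA-4, edgeR and DESeq2 called 0 keratins, and edgeR called 0.00511% of all genes. There 0 keratins had an unadjusted p under 0.05 in edgeR, as had 23.6% of all genes.

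Krt16 was the keratin at an unadjusted p under 0.05 in the antibody pair and in the triple combination, with log2 fold changes of 3.20 (SE 1.24) and 2.72 (SE 1.23) against the same control libraries. When only the compared groups were fitted, edgeR called it in the antibody pair (adjusted p = 0.0346). In anti-PD-1 the gene was Krt4, a type II keratin of mucosal epithelium, with 2 and 39 counts in anti-PD-1 and 1 and 1 count in control. The 39 counts belong to replicate B, which also held 22 of the 33 counts of Krt6a and 21 of the 52 counts of Krt17, both stress keratins, and Krt7 at 1.85 CPM. Replicate A of anti-PD-1 had 0 counts of Krt6a and 1 of Krt17. Of the 31-base stretches of Krt6a, 55.1% also occur in other genes, and of those of Krt17 15.8%.

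The anti-CD8 groups held most counts of Krt1, Krt5, Krt14 and Krt15. The CTLA-4 combination was compared with the CD8-depleted combination, whose label adds anti-CD8. The paper describes CD8 depletion as a study with its own control and its own CTLA-4 combination group. The labels do not say which experiment each library came from. These groups may thus differ by experiment as well as by depletion, as may the anti-CD8 groups and control. edgeR called 6 of 14 keratins, all lower in the CTLA-4 combination, where 6.89% of all genes were called. The median log2 fold change was -4.37 over the 14 keratins and -0.09 over all genes tested. The 6 were Krt7, Krt20, Krt10, Krt1, Krt14 and Krt15, and Krt5 and Krt17 also had an unadjusted p under 0.05, as had 38.3% of all genes. Krt1, Krt4, Krt5, Krt15, Krt17 and Krt20 did not pass the low-count filter in the 16 libraries without anti-CD8. The CD8-depleted combination held 96 of 109 counts of Krt1, 517 of 645 of Krt5, 193 of 225 of Krt15 and 232 of 257 of Krt20. Krt1, Krt5, Krt15 and Krt20 thus entered the test mainly through the group where they are high. The share of keratins called and their median fold partly follow from this filter, also for this group against control.

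Krt10 differed in both replicates, with 0.942 and 0.987 CPM in the CTLA-4 combination, against 3.73 and 4.04 CPM in the CD8-depleted combination. The other 16 libraries had 0.88 to 1.94 CPM, so that both libraries of the CD8-depleted combination were above all others. The log2 fold change was -2.01 (SE 0.43, adjusted p = 0.0252 in edgeR). Without replicate B of the depleted group it was -1.95, at an adjusted p of 0.204 and within the fold minimum.

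Krt15, a keratin of basal cells and of the hair follicle bulge, had 0 counts in both libraries of the CTLA-4 combination, against 102 and 91 counts (1.48 and 1.92 CPM) in the CD8-depleted combination. With the floor set at 3 counts over the group, it was 67.8-fold lower in the CTLA-4 combination (edgeR adjusted p = 0.0379). The exact 95% lower limit from counting error was 54.6-fold. Folds from this floor pool both replicates and leave out the spread between them. Krt1, the type II partner of Krt10, had 0 counts in both, against 83 and 13 counts. At the same floor it was 33.7-fold lower (lower limit 26.9, edgeR adjusted p = 0.0420). Krt14 had 2 and 0 counts, against 449 and 13 counts, and was 243 times lower in the CTLA-4 combination (exact 95% interval from counting error 67.0 to 2016, edgeR adjusted p = 0.0339). It shares 29.1% of its 31-base stretches with other genes. Krt5 had 0 counts in both, against 482 and 35 counts, and was 182-fold lower at this floor (lower limit 147). It was not called (edgeR adjusted p = 0.0887). Krt5, Krt14 and Krt1 were thus highest of all libraries in replicate A of the depleted group, and Krt15 was similar in its replicates.

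Krt7 and Krt20 rested on replicate B. Krt7 had 5 and 3 counts in the CTLA-4 combination, against 14 and 7239 counts in the CD8-depleted combination (edgeR adjusted p = 0.0268). Krt20, a keratin of intestinal and urothelial epithelium, had 0 and 0.018 CPM in the CTLA-4 combination, against 0.145 and 4.69 CPM in the CD8-depleted combination (edgeR adjusted p = 0.0303). Krt19, a keratin of ductal and simple epithelium, did not pass the filter, because 10468 of its 10495 counts came from the same library, and the next highest library had 6 counts. That library was also the highest of the 20 for Krt12, the corneal keratin (348 of 349 counts), the hair keratins Krt87 (211 of 215) and Krt84 (45 of 45), and Krt79 of the follicle canal and sebaceous duct (80 of 135). Krt87 shares 52.4% of its 31-base stretches with other genes.

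Without replicate B of the CD8-depleted combination, edgeR called 0 keratins in this comparison and 0.0246% of all genes, and the log2 fold change of Krt7 was -1.62 in place of -10.16. Without replicate A, which leaves replicate B alone in its group, it called more keratins, and the share of all genes called is not given for that fit. It called 0 without either library of the CTLA-4 combination, with those libraries summed as 1 sample, or with only the compared groups in the fit. DESeq2 called 4. The calls were thus not kept without either library of the CTLA-4 combination or without replicate B of the depleted group.

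The same library carried other epithelial genes, in values given beside these keratins because they moved with them. Epcam had 218 CPM there, against 0.09 to 0.61 CPM in the other 19 libraries, the E-cadherin gene Cdh1 224 CPM, against 2.29 to 9.03 CPM, the epithelial transcription factor Elf3 282 CPM, against at most 0.19 CPM, and Dsp 133 CPM, against at most 0.88 CPM. Krt8 and Krt18, at 508 and 468 CPM, were the lowest of all libraries, as were Vim at 2030 CPM and Plec at 218 CPM. Some terminal epidermal genes were highest of the 20 libraries in replicate A of the depleted group, at low levels. These were Lor, the main cornified envelope protein, at 0.39 CPM and the desmosomal cadherin Dsg1a at 0.52 CPM. Others, such as Sprr1a at 33.7 CPM, were highest in replicate B. The 18 cornified envelope genes together summed to 5.35 CPM in replicate A and 39.6 CPM in replicate B. The part of other tissue in these keratins was not tested.

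Against control, the CD8-depleted combination had Krt1, Krt5, Krt7, Krt10, Krt14, Krt15 and Krt20 higher at an unadjusted p under 0.05, and none was called (lowest adjusted p 0.145 in edgeR, 3 called by DESeq2). Krt10 had 3.73 and 4.04 CPM, against 0.88 and 1.94 CPM in control (log2 fold change 1.46, SE 0.42, adjusted p = 0.146). Krt15 was at least 59.2-fold and Krt1 at least 29.4-fold higher than control, which had 0 counts of each. Without replicate A of the depleted group some keratins were called, and without replicate B none was. The share of all genes called is not given for these fits.

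In anti-CD8 alone, replicate B had 125 counts of Krt5, 48 of Krt14, 30 of Krt15 and 9 of Krt1, where replicate A had 0, 1, 0 and 0. The control libraries had 3 and 0 counts of Krt5 and 1 and 1 count of Krt14. Krt15 was the keratin at an unadjusted p under 0.05 in this comparison (edgeR adjusted p = 1.00). The replicates of anti-CD8 thus disagreed, and the comparison could not be told from the spread between them. Krt7 and Krt20 were at 0.126 and 0.027 CPM and at 0 and 0 CPM in anti-CD8.

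Across all 10 groups at once, a test of any difference called 1 of 14 keratins, Krt7 (edgeR adjusted p = 0.0418, no fold minimum), where it called 0.879% of all genes. DESeq2 called 5. The call of Krt7 was lost in 19 of 20 fits that each left out 1 library. Krt8 (adjusted p = 0.518) and Krt18 (adjusted p = 0.646 in edgeR) were far from the threshold.

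Krt222, a keratin-like gene of type I, was highest in the libraries with the highest muscle markers and in replicate B of the CD8-depleted combination. It had at most 28 counts in a library, and no correlation with the markers was computed. The mean of log2 CPM over the 15 skeletal muscle genes was above 5 in 4 libraries, which had 0.195 to 0.529 CPM of Krt222, and at most 4.51 in 15 others, which had 0 to 0.125 CPM. Replicate B of the CD8-depleted combination had 0.508 CPM of Krt222 with a muscle mean of 0.05. The part of muscle in this level was not tested.

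Among genes that act with keratins, calls fell in the depletion comparison and the joint test. Of 16 desmosome and plakin genes, 13 were tested, and edgeR called 4 (Jup, Perp, Dsp and Dsg3) lower in the CTLA-4 combination than in the CD8-depleted combination, where 6.89% of all genes were called. The median log2 fold change of the list was -1.75. These 4 genes had their highest levels of the 20 libraries in replicate B of the depleted group, with Dsp at 133 CPM, against at most 0.88 CPM elsewhere, and Perp at 45.9 CPM, against at most 1.07 CPM. Without that library these calls were lost, and the median log2 fold change of the list was 0.12. Among the epithelial identity regulators, Elf3, Ehf, Grhl2, Trp63 and Esrp1 were lower in the same comparison. The calls of that list were lost without replicate B, with a median log2 fold change of -0.64 in place of -4.17. The low-count filter kept 13 desmosome and plakin genes and 10 regulators over all 20 libraries. It kept 12 and 8 in the 16 libraries without anti-CD8. Some genes thus entered the test through the groups where they are high, and the shares called partly follow from this filter. All 10 adipocyte markers were lower in this comparison too. Their calls were also lost without replicate B, with a median log2 fold change of -4.03 in place of -10.82. Across all 10 groups genes called by the joint test included Perp, Dsp, Elf3, Ehf and Grhl2, and without replicate B it called 0 genes of these lists and 0% of all genes. Of 9 hemidesmosome genes edgeR called 0 in the depletion comparison, with 4 at an unadjusted p under 0.05, beside the 38.3% of all genes. Of 3 tested among 18 cornified envelope genes it called 0, with 2 at an unadjusted p under 0.05. The share of all genes called by DESeq2 is not given, so its counts of keratins cannot be weighed against it.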

How the data were processed

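Values used are expected counts, which the authors made from reads trimmed with Trimmomatic 0.39 by estimating transcripts with Salmon (GENCODE mouse transcripts, GRCm39) and deposited as sums per gene with no depth scaling. The submitters' processing notes give Salmon 1.5.0. A table of log2 values deposited beside it was not used. Ensembl IDs gave symbols for 51484 of 54309 genes.

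After rounding, genes were kept by filterByExpr on the groups (at least 10 counts, total 15): 19567 over all libraries, 19020 over the 16 libraries outside the anti-CD8 groups. edgeR's robust quasi-likelihood model used TMM factors, with 10 group means or, over the 16, additive terms for each agent. Adjustment was Benjamini-Hochberg over all genes tested. Calls needed an adjusted p under 0.05 and, except in the joint test, a log2 fold change beyond 2 in either direction. The common biological coefficient of variation was 38.7% and 35.6%. A group at 0 was set to 3 counts in all to give a fold, which is not a strict lower bound. Fits were tested on simulated data. Transcript lengths and shared 31-base stretches came from GENCODE of the GRCm38 build, promoters from RefSeq.

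The members and lists were chosen with earlier results of these data known. The text names keratins with a mean of at least 1 CPM, those called in a comparison, those whose highest library exceeds 20 times their median library on at least 100 counts, and in any case Krt5, Krt14, Krt8, Krt18, Krt1, Krt10, Krt6a, Krt16, Krt17, Krt7 and Krt19. Of the other lists it names some called genes and some of highest mean, and 1 listed gene is not reported here. Further genes given for particular libraries were chosen after their values were seen. The alternatives were RLE factors, other low-count filters (none, or a mean of 1 CPM), no fold minimum, DESeq2, the replicate letter as a block, leaving out each library, summing both libraries of the group given APG-157 with anti-CTLA-4, fitting compared groups only, and dropping the library that stood apart. For the lists other than keratins that last alternative was chosen after seeing the data. R 4.3.3 ran edgeR 4.0.16, DESeq2 1.42.0 and limma 3.58.1. Figures were drawn with matplotlib 3.10.9 in Python 3.11.15.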

Additional observations from a re-analysis of the deposited data

How the results depend on the processing

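Of 239 alternative counts of called keratins over 15 comparisons, 199 stayed within 1.5 times the reported count, and 10 comparisons, each at 0 calls, kept 0 under every alternative run. For the CTLA-4 combination against the CD8-depleted combination (6 calls), there were 3 with a filter at a mean of 1 CPM, and 0 with both libraries of the CTLA-4 combination summed, without replicate B of the depleted group or with the compared groups only; leaving out 1 library gave 0 to 11. For the CD8-depleted combination against control (0 calls), DESeq2 called 3 and leaving out 1 library gave 0 to 9. For the anti-CTLA-4 contrast of the layout (0 calls), DESeq2 called 1 and leaving out 1 library gave 0 to 1. For the antibody pair against control (0 calls), the compared groups alone gave 1. For the joint test (1 call), there were 2 with the filter at 1 CPM, 5 by DESeq2, and 0 with the libraries summed or without replicate B of the CD8-depleted combination; leaving out 1 library gave 0 to 6. Apart from the alternatives that use fewer libraries or genes, the cause was not tested. Most alternatives have no share of all genes beside them, so their counts of keratins cannot be weighed against it.

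With the replicate letter as a block, 5 keratins were called in place of 6 between the CTLA-4 combination and the CD8-depleted combination, and 0 in place of 1 in the joint test; no other count of called keratins changed. The letters do not pair the samples: over 45 pairs of groups the correlation of the A minus B differences had a median of 0.01 (lowest -0.34, highest 0.66, 25 positive).

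Of 564 alternative log2 fold changes of 39 gene results, 0 changed direction, 41 lost their call and 11 gained one. With 2 libraries a group, a left-out library leaves a lone sample that is assumed to vary like the other groups. Keratins under about 1 CPM rest on few counts, so that absence cannot be told from a low level.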
